A study of Mus musculus with 26 samples.

Results

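The genes described here encode the proteins of the cytosolic ribosome. They were chosen by symbol alone: every Rpl or Rps gene with a plain number (with or without the endings a, x or al), together with Rpsa, Rplp0, Rplp1 and Rplp2. The RefSeq table held 77 such symbols, of which 76 had a probe on the array (162 probes in all), and 75 were measured, 45 of the large and 30 of the small subunit, among 24738 genes tested. Rpl37 had no named probe, and the probe of Rpl32 was left out because of spots marked as outliers. All 75 were well above background on all 26 arrays, so the filter on dim probes removed none of them, and each gene is represented by its brightest probe.

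A ribosome joins a small subunit, which reads the mRNA, to a large subunit, which forms the peptide bond. Ribosomal proteins are made in matched amounts. Their mRNAs belong to the TOP class, which starts with a C followed by a run of pyrimidines, and this 5' terminal oligopyrimidine tract places their translation under the kinase mTORC1. In brain microglia, as in other cells, these mRNAs are among the most abundant.

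Microglia were sorted as EGFP-positive cells from C57BL/6 mice in which 1 copy of the fractalkine receptor gene carries EGFP (CX3CR1EGFP/+), a change that every group shares, controls included. The wild-type (WT) groups carry no other allele, and the labels write the other genotype as TLR-DKO without spelling out its genes. The treatment was either repeated exposure to an aggressor mouse, called repeated social defeat stress (R-SDS), or moving between cages (naive). Cells were taken 1.5 hours after the last session, with a biopsy punch 1.5 mm wide, from the nucleus accumbens (NAc) or from the medial prefrontal cortex (mPFC). Each sample pooled 3 to 6 mice to reach 500 pg of RNA, which was amplified and hybridised to 1 single-colour array.

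Of the 8 groups, TLR-DKO naive in the mPFC and TLR-DKO R-SDS in the NAc held 4 samples each, and the other groups 3 each. Stressed mice are labelled susceptible when wild-type and resilient when TLR-DKO, so that this outcome and genotype cannot be told apart. They speak of 2 experiments with different mice but do not say which sample belongs to which, and p-values therefore measure only the spread between these samples.

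The EGFP gate admits other CX3CR1-positive cells. The microglia markers Cx3cr1, P2ry12 and Tmem119 were well above background on all 26 arrays, the neuronal marker Snap25 also on 26 and Syt1 on 2. Of the perivascular macrophage markers, Mrc1 was above it on 22 arrays and Cd163 on 7. Each defining marker of astrocytes, oligodendrocytes and endothelial cells was above it on 19 to 26 arrays, the T cell marker Cd3e on 26 and the monocyte marker Ccr2 on 7. Tlr2 was well above background on 12 arrays, none of them among the 14 TLR-DKO arrays, and the Tlr4 probe was above it on 26, although where that probe lies relative to a deletion is not given. The arrays lie on 4 slides scanned on 2 days, and each day held 1 slide of each region. The 75th percentile of the signal ran from 80.7 units on WT mPFC R-SDS replicate 3 to 340.5 units on WT mPFC naive replicate 3, and both of these arrays lie on slide 2, scanned on day 2.

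The starts of these genes are shown first because the pyrimidine tract is the sequence feature by which the family is known. RefSeq promoters (GRCm38.p6) were found for 56 of the 75 genes, 66 windows in all, and a C at the annotated start followed by 4 bases that are each C or T stood in 13 windows (19.7%) against 2.51% of all 32851 promoters. The lines below give 15 bases before and 15 bases from the annotated start, 5' to 3' on the coding strand, with the unbroken pyrimidine run at the start in capitals. The first group holds the motif.

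Rps6: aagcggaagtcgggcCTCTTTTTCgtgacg
Rpl28: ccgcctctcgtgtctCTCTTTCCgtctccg
Rpl15: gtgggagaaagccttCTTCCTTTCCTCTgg
Rplp2: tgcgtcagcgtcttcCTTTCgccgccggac
Rpl14: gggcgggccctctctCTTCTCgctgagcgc
Rps27: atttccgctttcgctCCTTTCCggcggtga

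These lie at chr4:86857353-86857382 (minus strand) for Rps6, chr7:4792950-4792979 (plus) for Rpl28, chr14:18270972-18271001 (minus) for Rpl15, chr7:141447636-141447665 (plus) for Rplp2, chr9:120571502-120571531 (plus) for Rpl14 and chr3:90213634-90213663 (minus) for Rps27. The next 4 genes, which lead several of the comparisons, do not have the motif at the start RefSeq annotates.

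Rpsa: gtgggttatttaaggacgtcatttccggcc
Rps16: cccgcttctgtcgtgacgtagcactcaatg
Rpl6: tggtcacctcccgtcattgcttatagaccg
Rps3: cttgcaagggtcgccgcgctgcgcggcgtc

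Their positions are chr9:120127751-120127780 (plus) for Rpsa, chr7:28350674-28350703 (plus) for Rps16, chr5:121204486-121204515 (plus) for Rpl6 and chr7:99483695-99483724 (minus) for Rps3. An annotated start that is off by a few bases hides the motif, as the pyrimidine runs a few bases away in some of the other windows show, so the absence of these letters here says nothing about translation control.

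Other motifs were searched in the whole windows, from 250 bases before the start to 50 after it. CTTTCC on the coding strand stood in 27 of the 66 windows (40.9%, against 14.1% of all promoters). CGGAAG, the core of ETS-factor motifs, stood on either strand in 41 (62.1%, against 16.9%), and TCGCGA, which reads alike on both strands, in 14 (21.2%, against 2.5%). GGGCGG, the GC box, stood in 40 (60.6%, against 35.7%), and TATAAA in 6 (9.09%, against 13.6%). No motif contains another, but GGGCGG can share bases with CGGAAG, and CTTTCC can lie within the pyrimidine run at the start. A match is a run of letters and not a bound site.

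The levels of the 75 genes varied together from array to array. A level here is log2 of the processed signal after scaling to the 75th percentile of its array. Over the 26 arrays, the level of a gene correlated with the median level of the other 74 with a median Pearson r of 0.80, and 70 of 75 genes had an r above 0.5, which 11.8% of all genes had against the median of the family. With the group means removed, the median r was 0.76 and 64 genes were above 0.5, so most of this common movement lay between arrays of the same group. The points share the array, its brightness and its amplification, and the correlation is a description.

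The acidic stalk protein gene Rplp2 followed the others most closely (r = 0.95), then Rpl30 (0.94), Rpl41 (0.94) and Rps12 (0.93). The least alike was Rpl7a (r = 0.01), followed by Rps3 (0.31), Rpl29 (0.41), Rpl27 (0.44) and Rps6 (0.50). Rps3 lies at the mRNA entry channel of the small subunit, and Rps6 is the classical substrate of the S6 kinases. The 3 other passing probes of Rpl7a disagreed with its brightest one: their r with it ran from -0.12 to -0.03.

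The genes also varied less than other genes within a group. The SD between arrays of a group had a median of 0.49 over the 75 against 0.76 over all genes, and 73 of the 75 lay under the latter value. The steadiest were Rps3 (SD 0.28), Rps19 (0.32), Rps9 (0.32), Rps26 (0.32) and Rpl7a (0.36). The most variable were Rps27 (0.81), Rpl6 (0.77), Rplp1 (0.76), Rps7 (0.70) and Rpl35a (0.69). The difference from other genes was not separated from the brightness of the probes.

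Outside the family, named genes among those with the most similar pattern over the 26 arrays were the pseudogene Rpl31-ps12 (r = 0.96 with the median of the 75), the ribosomal protein retrogene Rpl37rt (0.94), Tpt1 (0.91) and the elongation factor gene Eef1a1 (0.90). Ribosomal protein genes have many processed pseudogenes of near-identical sequence. The probe sequences were not used here, so signal from a gene and from its copies cannot be told apart.

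On single arrays the median level of the 75 genes was 5.61, 5.48 and 4.46 in WT mPFC naive replicates 1 to 3 and 5.60, 5.66 and 6.33 in WT mPFC R-SDS. It was 5.98, 5.22, 5.75 and 5.21 in TLR-DKO mPFC naive and 5.43, 5.69 and 5.03 in TLR-DKO mPFC R-SDS. In the NAc it was 5.02, 5.49 and 4.73 in WT naive, 5.04, 5.37 and 5.65 in WT R-SDS, 5.36, 5.36 and 5.21 in TLR-DKO naive, and 5.32, 4.91, 5.47 and 4.89 in TLR-DKO R-SDS. Of all 26 arrays, the lowest and the highest belonged to the same comparison, the stress effect in wild-type mPFC.

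**Figure D1:**
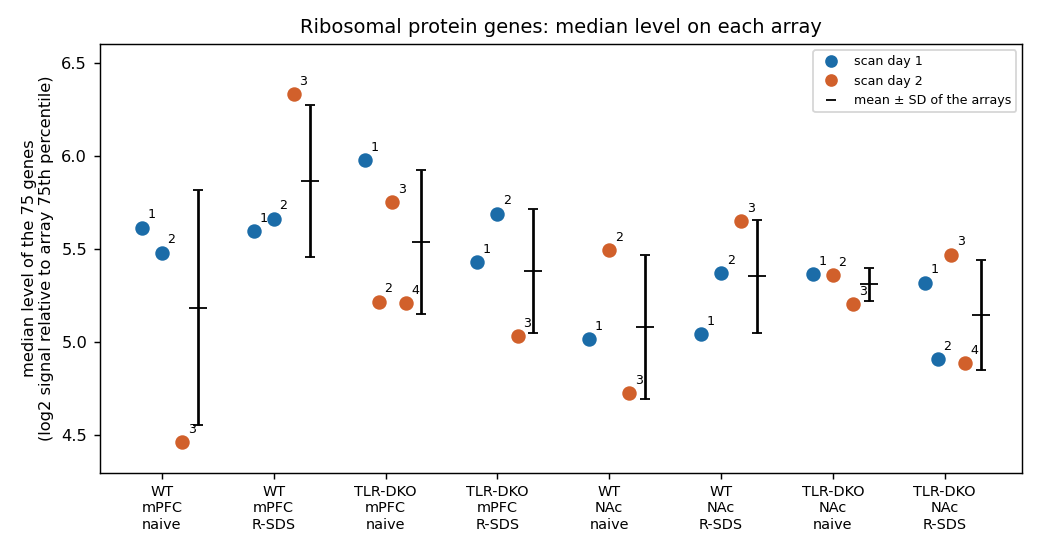
Median level of the 75 genes on each array (log2, scaled to the 75th percentile of each array), by group, with the replicate number beside each point, the scan day as its colour, and the mean ± SD of the arrays at its right. WT mPFC naive replicate 3 at 4.46 and WT mPFC R-SDS replicate 3 at 6.33 are the lowest and the highest of the 26. These 2 groups overlap, with naive replicate 1 (5.61) above R-SDS replicate 1 (5.60), and the arrays of the other groups overlap among themselves.

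Those 2 arrays stood apart over most members. On WT mPFC naive replicate 3, 0 of 75 genes lay above their own median over the 26 arrays, and 40 had their lowest level there. On WT mPFC R-SDS replicate 3, 71 lay above it and 52 had their highest level there. Replicate 3 of the naive group is also the brightest array and replicate 3 of the R-SDS group the dimmest. Before scaling, the median log2 signal of the 75 genes was 12.87 on the former and 12.67 on the latter, in the reverse order of the scaled levels. The part of array brightness in the results below was not tested.

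**Figure D2:**
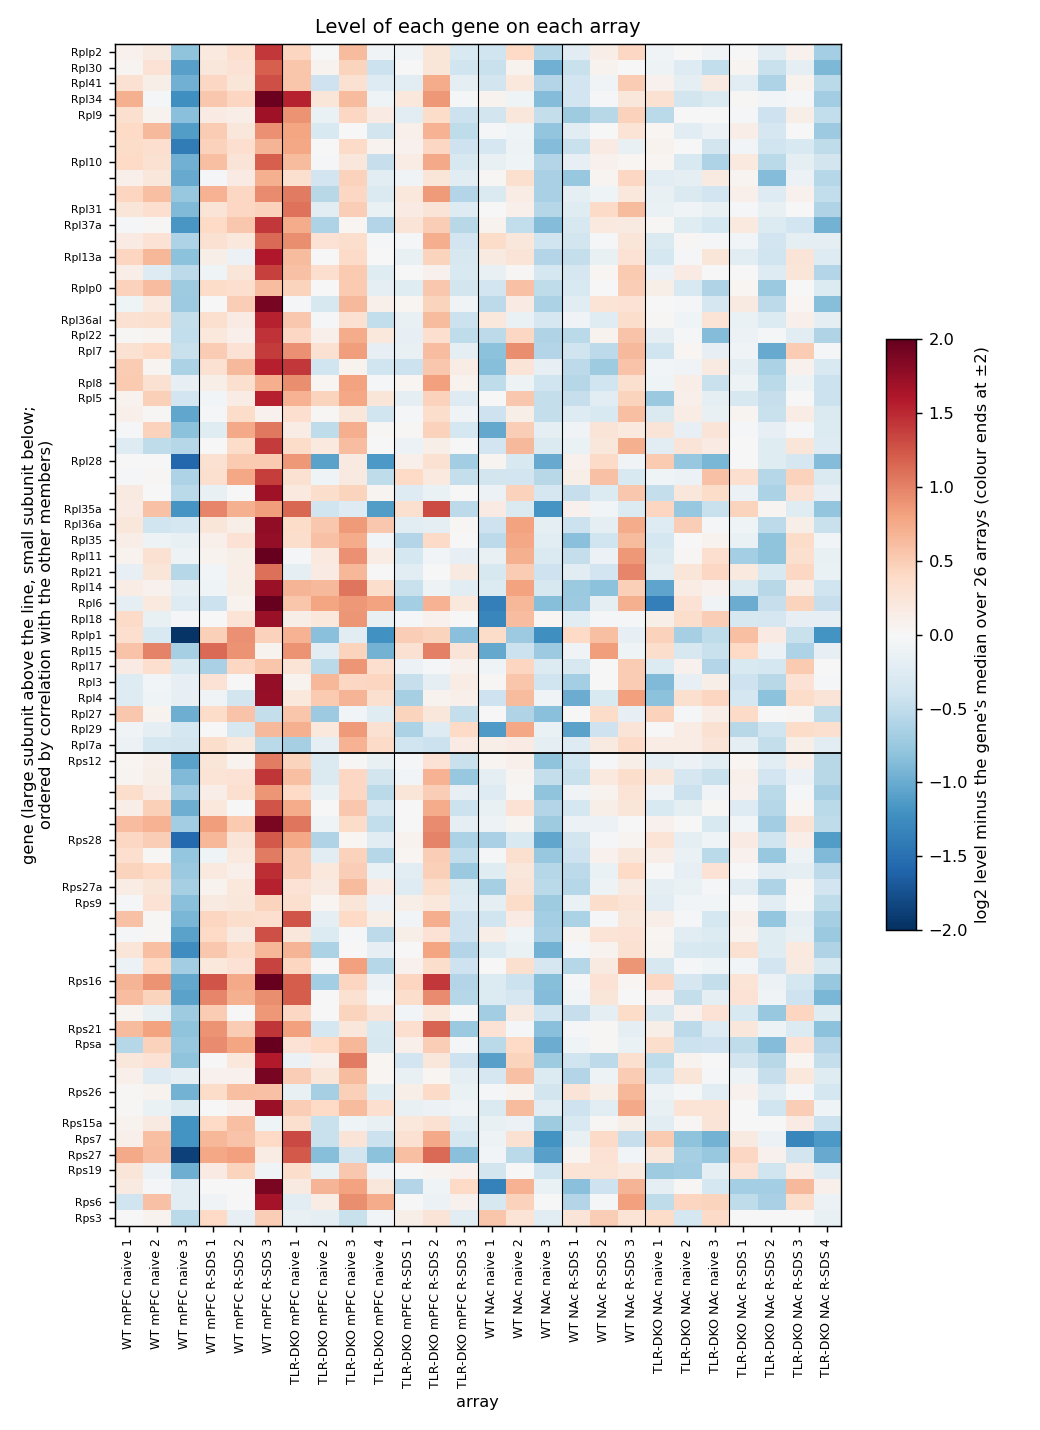
Level of each gene (rows, large subunit above the line and small subunit below, ordered by correlation with the other members) on each of the 26 arrays (columns, by group), as the log2 difference from the gene's own median over the arrays, with the colours ending at 2 in both directions. The column of WT mPFC naive replicate 3 is blue in nearly every row and that of WT mPFC R-SDS replicate 3 is red in nearly every row, and the rows of Rps3 and Rpl7a are pale throughout. Rows of genes named in the text carry their symbols.

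**Figure D3:**
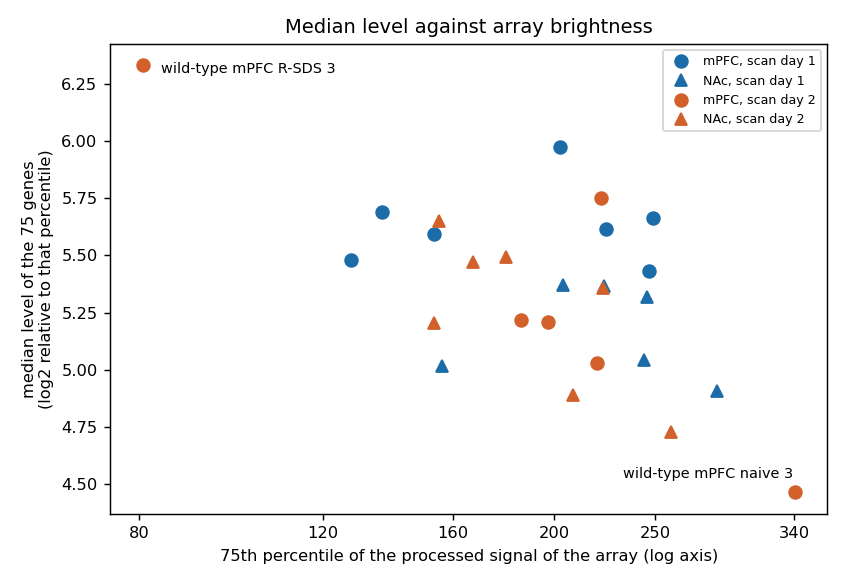
Median level of the 75 genes on each array (log2 relative to the array's 75th percentile) against that percentile (signal units, log axis), with mPFC arrays as circles, NAc arrays as triangles and the scan day as colour. The dimmest array, at 80.7 units, has the highest median level (6.33) and the brightest, at 340.5 units, the lowest (4.46).

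The first comparison set stressed against naive wild-type mPFC samples. The fitted log2 change was above 0 for all 75 genes, which was so for 62.3% of all genes tested, and the median change was 0.69 where the median over all genes was 0.17. No gene of the family passed the threshold (limma, Benjamini-Hochberg adjusted p under 0.05, which 0.00808% of all genes did), and the smallest adjusted p was 0.783, for Rpsa. An unadjusted p under 0.05 was found for 15 of the 75, or 20%, all of them higher, against 3.66% of all genes. In 14 genes all 3 R-SDS arrays lay above all 3 naive arrays, against 5.06% of all genes. The large subunit (median 0.65, 45 of 45 above 0) and the small subunit (0.72, 30 of 30) stood close together. Fewer cells of a type in the pool and less RNA per cell cannot be told apart in such samples.

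Rpsa, a small-subunit protein also known as the laminin receptor, had the greatest change. Its level was 3.22, 4.26 and 3.03 in naive and 4.74, 4.58 and 5.79 in R-SDS replicates 1 to 3. All stressed arrays lay above all naive ones, and the log2 change was 1.53 ± 0.43 (SE). Its 3 other passing probes gave 0.66, 0.93 and 2.72, and their r with the brightest probe was 0.33, 0.88 and -0.03 in the same order.

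Rplp1, a protein of the acidic stalk that recruits translation factors to the large subunit, stood at 6.00, 5.36 and 3.70 in naive and 6.14, 6.58 and 6.13 in R-SDS. The groups did not overlap, and naive replicate 3 lay far below the others. Its log2 change was 1.26 ± 0.61 (SE, adjusted p = 0.83 with limma). Rpl37a stood at 6.01, 6.06 and 4.87 in naive and 6.44, 6.57 and 7.44 in R-SDS, again without overlap, and its change was 1.17 ± 0.43 (SE).

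At the other end, Rpl17 changed by 0.04 ± 0.39, Rpl8 by 0.17 ± 0.34 and Rpl27 by 0.27 ± 0.41 (SE). Rpl17 stood at 4.98, 5.15 and 4.51 in naive and 4.16, 5.23 and 5.36 in R-SDS, so its lowest and its highest array were both stressed ones. These small values turned below 0 under some scalings. With quantile normalization Rpl17 was at -0.37, Rpl8 at -0.18 and Rpl27 at -0.14, and 68 rather than 75 genes lay above 0.

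Rpl3, which lies near the peptidyl transferase centre, stood at 3.90, 4.10 and 3.98 in naive and 4.45, 4.16 and 5.92 in R-SDS. Its groups did not overlap. The change was 0.85 ± 0.42 (SE), and 0.31 without the third stressed array. Rps27a, which is made as a fusion with ubiquitin, stood at 5.82, 5.93 and 5.01 in naive and 5.74, 5.89 and 7.22 in R-SDS, with overlapping groups and a change of 0.70 ± 0.38 (SE).

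Rps6 stood at 4.19, 5.17 and 4.35 in naive and 4.52, 4.60 and 6.24 in R-SDS (change 0.55 ± 0.47, SE). Rpl13a, known in human monocytes for leaving the ribosome to silence inflammatory mRNAs, stood at 4.79, 5.03 and 3.55 in naive and 4.48, 4.25 and 5.96 in R-SDS (0.44 ± 0.44, SE). Rplp0, the base of the stalk, stood at 4.72, 4.88 and 3.55 in naive and 4.63, 4.59 and 4.87 in R-SDS (0.32 ± 0.39, SE). With the mean of a gene's probes Rps6 stood at 0.00017, Rps27a at 0.36 and Rpl17 at 0.81. The groups of Rps6, Rpl13a and Rplp0 overlapped, and in Rpl13a both stressed arrays of day 1 lay below both naive arrays of that day.

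The scan day splits this comparison. On day 1, with 4 arrays (replicates 1 and 2 of each group), the median change was 0.08 and 50 of the 75 genes were above 0. On day 2, with replicate 3 of each group alone, it was 2.00 and 74 were above 0. The median over all genes moved with it, from -0.04 on day 1 to 0.61 on day 2. Without naive replicate 3 the median was 0.38, and without R-SDS replicate 3 it was 0.40. In both cases 68 of the 75 genes were above 0. Neuronal markers moved in the same comparison: all 7 measured of 13 were above 0, with a median of 0.94, and their summed level ran from 5.09 to 6.65 in naive and from 5.77 to 6.998 in R-SDS. Immediate early genes, the first genes that a cell induces after a stimulus, were above 0 in 18 of 19, with a median of 1.19, and their summed level ran from 8.62 to 9.52 in naive and from 9.95 to 10.67 in R-SDS, without overlap. They were led by Klf4 at 3.18, 7 of them had an unadjusted p under 0.05 and 0 passed with limma. Perivascular macrophage markers were above 0 in 6 of 9 (median 0.23, summed level 3.19 to 4.42 against 4.23 to 5.82), endothelial and mural markers in 4 of 6 (median 0.64, summed level 2.56 to 3.39 against 3.03 to 4.05) and astrocyte markers in 6 of 9 (median 0.62, summed level 4.14 to 5.16 against 4.24 to 6.23). The summed levels of the neuronal and of these last 3 lists overlapped between the groups. Microglia markers ran from 10.79 to 11.41 in summed level in naive and from 10.90 to 12.21 in R-SDS, also with overlap. Their lowest value in this comparison was that of naive replicate 3 and their highest that of R-SDS replicate 3. The part of all these genes in the result was not tested.

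**Figure D4:**
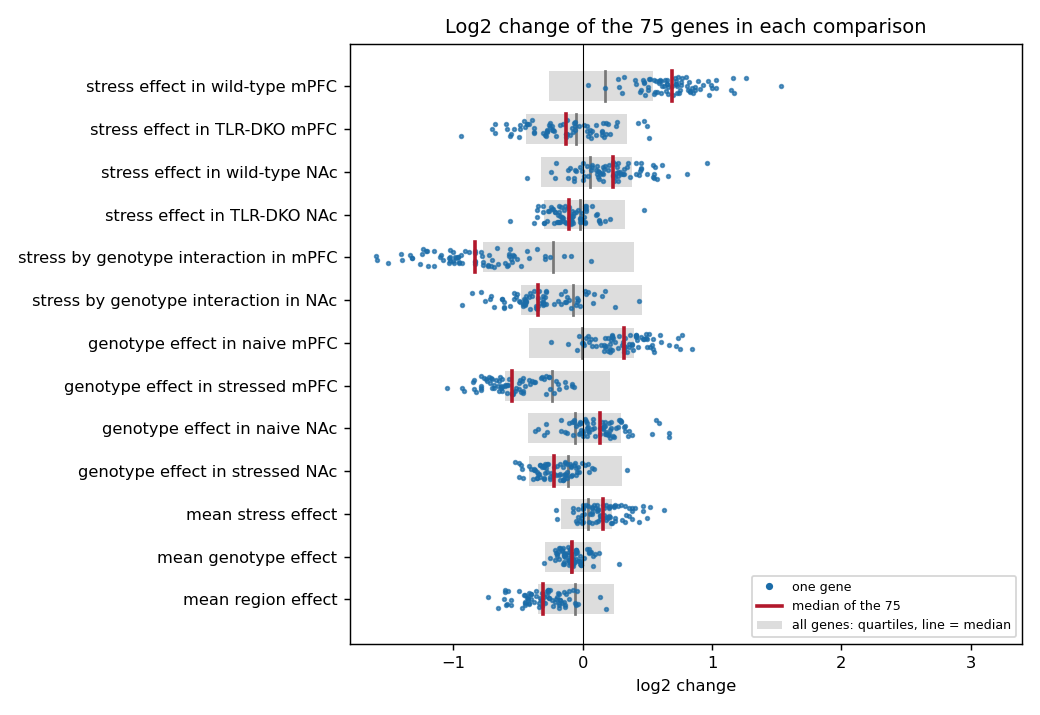
Log2 change of each of the 75 genes (points) in the 13 comparisons (rows), with their median as a red line and the quartiles and median of all 24738 genes as a grey box and line. In the stress effect in wild-type mPFC all 75 points lie above 0 with a median of 0.69, in the interaction in mPFC 74 lie below 0 with a median of -0.83, and the medians of the TLR-DKO stress effects, -0.13 and -0.11, lie near those of all genes.

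In TLR-DKO mPFC the median stress effect was -0.13 over the 75 genes and -0.05 over all genes, and 25 of the 75 were above 0, against 46% of all genes. The threshold was passed by 0 genes of the family and 0% of all genes, and an unadjusted p under 0.05 was found for 1, Rpl14, against 2.71% of all genes on the lower side. In 6 genes, or 8%, all R-SDS arrays lay below all naive arrays, against 4.11% of all genes. The greatest values were those of Rpl35a (0.52 ± 0.53), Rps27 (0.49 ± 0.61) and Rpl15 (0.48 ± 0.45). The lowest were those of Rpl14 (-0.94 ± 0.43), Rpl36a (-0.70 ± 0.39) and Rpl29 (-0.68 ± 0.41, all SE). Rpl14 stood at 5.05, 5.02, 5.43 and 4.72 in the 4 naive arrays and at 3.91, 4.26 and 4.16 in the R-SDS arrays, so its groups did not overlap. Its other passing probe had an r of 0.08 with this brightest one. On day 1 alone the median was -0.34 with 66 below 0 (all genes -0.16), and on day 2 alone -0.32 with 71 below 0 (all genes -0.11). The naive and the R-SDS group mix the days unequally. With both days in the fit, the median was -0.33 without R-SDS replicate 2 and -0.027 without naive replicate 1.

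Of the genes followed throughout, Rpl3 had a change of -0.56, Rps6 of -0.42, Rps27a of -0.38, Rpl13a of -0.26, Rplp0 of -0.22 and Rpsa of -0.07 in TLR-DKO mPFC. Each of these is within 1.5 SE of 0, and all 6 had been above 0 in wild-type mPFC.

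The stress by genotype interaction in mPFC, the TLR-DKO stress effect minus the wild-type one, was tested next. It was below 0, that is lower in TLR-DKO, for 74 of the 75 genes (60.4% of all genes), with a median of -0.83 against -0.23 over all genes. No gene passed in the family or among all genes (0%), and the smallest adjusted p of the family was 0.81 (limma). An unadjusted p under 0.05 on the lower side was found for 12, or 16%, against 3.88% of all genes. The lowest values were those of Rpsa (-1.60 ± 0.59), Rpl36a (-1.59 ± 0.57) and Rpl14 (-1.51 ± 0.63), and the highest those of Rpl15 (0.07 ± 0.66), Rpl27 (-0.09 ± 0.57) and Rps3 (-0.14 ± 0.39, all SE).

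Rpl3 differed by -1.41, Rps27a by -1.08, Rps6 by -0.97, Rpl13a by -0.70 and Rplp0 by -0.54 between the genotypes' stress effects, the last turning to 0.09 with quantile normalization. Rpl14, whose value rests on its brightest probe, stood at 0.02 with the mean of its probes, Rps6 at -0.18, Rpl15 at -0.60, Rpl27 at -0.57, Rps3 at -0.63 and Rpl13a at -1.16. This comparison contains the same 2 outlying arrays: its median over the family was -0.48 without WT mPFC naive replicate 3, -0.55 without WT mPFC R-SDS replicate 3 and -0.25 without both. On day 1 alone it was -0.44 and on day 2 alone -2.34. With quantile normalization it was -0.30, and 56 rather than 74 genes lay below 0. Perivascular macrophage markers, 7 of 9 below 0 with a median of -2.08, and microglia markers, 16 of 16 below 0 with a median of -0.50, lay in the same direction, as did 16 of 19 immediate early genes with a median of -0.83. Their part was not tested.

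In wild-type NAc the stress effect was above 0 for 61 of the 75 genes (55% of all genes), with a median of 0.23 against 0.06 over all genes. The threshold was passed by 0 genes of the family and 0% of all, and an unadjusted p under 0.05 (limma) was found for 0 of the 75, against 2.93% of all genes. In 8 genes the R-SDS arrays all lay above the naive arrays, against 4.51% of all genes. Rpl15 had the greatest change: it stood at 3.00, 3.60 and 3.30 in naive and at 3.96, 4.86 and 3.94 in R-SDS, without overlap, a change of 0.96 ± 0.48 (SE). These values rest on its brightest probe, with which its other passing probe had an r of 0.05. Rplp1 followed with 0.81 ± 0.61 and Rps27 with 0.66 ± 0.65, while Rpl14 (-0.43 ± 0.46), Rpl29 (-0.24 ± 0.44) and Rpl35 (-0.22 ± 0.46) stood lowest. The median rests on few arrays: leaving out R-SDS replicate 3 gave 0.037 and leaving out R-SDS replicate 1 gave 0.35, while the fits without the naive replicates 2 and 3 gave 0.43 and 0.057. On day 1 alone it was 0.10 with 48 genes above 0 (all genes -0.02), and on day 2 alone 0.49 with 72 above 0 (all genes 0.12).

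Within the NAc, Rpsa had a stress effect of 0.31 in wild type and -0.26 in TLR-DKO, and Rps6 of 0.01 and -0.35. Rpl3 stood at -0.12 and 0.13, Rplp0 at 0.16 and 0.02, Rps27a at 0.15 and -0.18, and Rpl13a at -0.06 and -0.10. In TLR-DKO NAc the median over the 75 was -0.11 (all genes -0.02), and 18 were above 0 against 48.1% of all genes. With limma 0 of the 75 passed (0.00808% of all genes), and 0 had an unadjusted p under 0.05 (3.04% of all genes). On the single days the median was -0.10 and -0.16, and without R-SDS replicate 4 it was -0.0091. The extremes there were Rps19 (0.48), Rpl17 (0.21) and Rps27 (0.17) at the upper end and Rpl18 (-0.56), Rpl7a (-0.38) and Rpl41 (-0.35) at the lower. The interaction in the NAc had a median of -0.35 (all genes -0.07) with 66 of 75 below 0 (54.8% of all genes), and 0 of the 75 passed with limma (0% of all genes) or had an unadjusted p under 0.05 (2.52% of all genes). On day 1 it was -0.21 and on day 2 -0.65, and without WT naive replicate 3 -0.16. Its extremes were Rpl15 (-0.94), Rps28 (-0.85) and Rplp1 (-0.79), and Rpl14 (0.43), Rpl3 (0.25) and Rpl17 (0.18).

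Genotype was compared within each treatment. These comparisons use the same arrays as the stress effects, so their values repeat that information from another side. In naive mPFC, 70 of 75 genes were higher in TLR-DKO (49.8% of all genes), with a median of 0.32 (all genes -0.00295). In 10 genes, or 13.3%, all TLR-DKO arrays lay above all wild-type arrays, against 3.12% of all genes in that direction. The highest were Rpl6 (0.85), Rpl34 (0.76) and Rpl36a (0.75) and the lowest Rpl15 (-0.25), Rps21 (-0.11) and Rps3 (-0.05). Without WT mPFC naive replicate 3 the median was -0.01, and on the single days it was 0.34 and 0.84.

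In stressed mPFC all 75 genes were lower in TLR-DKO (65.8% of all genes), with a median of -0.55 (all genes -0.24). In 7 genes, or 9.33%, all TLR-DKO arrays lay below all wild-type arrays, against 6.19% of all genes in that direction, which is near the background. Rpsa (-1.05 ± 0.43), Rpl11 (-0.93 ± 0.47) and Rps16 (-0.92 ± 0.55) were lowest, and Rpl8 (-0.08) and Rpl27 (-0.09) were near 0. Without WT mPFC R-SDS replicate 3 the median was -0.27, and on the single days it was -0.09 and -1.53. In the NAc the medians of the genotype effect were 0.14 in naive (all genes -0.06) and -0.22 in stressed mice (all genes -0.11). On days 1 and 2 they were 0.17 and 0.10 in naive and -0.05 and -0.55 in stressed mice, and without WT naive replicate 3 the former was -0.09. In naive NAc 53 genes were above 0 (45.3% of all genes), from Rpl3 (-0.37), Rpl14 (-0.34) and Rpl5 (-0.30) to Rps28 (0.67), Rpl27 (0.67) and Rpl15 (0.59). In stressed NAc 69 were below 0 (58.7% of all genes), from Rps7 (-0.52), Rplp1 (-0.50) and Rpl28 (-0.49) to Rpl29 (0.34), Rpl14 (0.09) and Rpl9 (0.07).

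In these 4 genotype comparisons 0 of the 75 genes passed the threshold with limma. All genes passed at a rate of 0.0121% in naive mPFC, stressed mPFC and naive NAc, and 0.00808% in stressed NAc. An unadjusted p under 0.05 was found for 1 of the 75 in naive mPFC (5.69% of all genes), for 2 in stressed mPFC (5.84%), and for 0 in naive NAc (3.3%) and in stressed NAc (4.03%).

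Averaged over both genotypes and regions, the stress effect had a median of 0.15 over the 75 genes (all genes 0.04), with 63 above 0 (55.9% of all genes). Its direction turned with the scan day: the median was -0.06 with 24 above 0 on day 1 (all genes -0.07) and 0.48 with 74 above 0 on day 2 (all genes 0.16). Rplp1 (0.63 ± 0.30), Rps27 (0.52 ± 0.31) and Rpl35a (0.50 ± 0.27) stood highest and Rpl29 (-0.21 ± 0.21), Rpl14 (-0.20 ± 0.22) and Rpl4 (-0.08 ± 0.25, all SE) lowest. The average genotype effect had a median of -0.09 over the family and -0.09 over all genes, with 63 of 75 below 0 (61.5% of all genes). It turned with the day too, from 0.11 with 54 above 0 on day 1 (all genes -0.02) to -0.28 with 66 below 0 on day 2 (all genes -0.20). Without WT mPFC R-SDS replicate 3 it was -0.0100 and without WT mPFC naive replicate 3 -0.17, and the stress average without the latter was 0.080. The genotype average ran from Rpl11 (-0.30), Rps21 (-0.25) and Rplp0 (-0.22) to Rpl29 (0.28), Rpl27 (0.12) and Rps15a (0.09). With limma 0 of the 75 passed in either average, where 0% and 0.0202% of all genes did. An unadjusted p under 0.05 was found for 4 in the stress average (5.47% of all genes) and for 0 in the genotype average (8.23%).

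The region effect compares the NAc with the mPFC, averaged over the 4 combinations of genotype and treatment. Of the 75 genes, 73 were lower in the NAc (55.3% of all genes), with a median of -0.31 against -0.06 over all genes. The threshold was passed by 0 of the 75 and by 0.897% of all genes, 222 in number. An unadjusted p under 0.05 was found for 17, or 22.7%, all lower, against 10.4% of all genes. All mPFC arrays lie on slides 1 and 2 and all NAc arrays on slides 3 and 4, so slide and region cannot be told apart, and the p-values above take the arrays of a slide as independent. With slide as a random block the median was -0.30, 73 genes were again below 0, and the smallest adjusted p of the family was 0.758 (limma). The subunits stood alike, with medians of -0.31 for the large (44 of 45 below 0) and -0.29 for the small one (29 of 30).

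**Figure D5:**
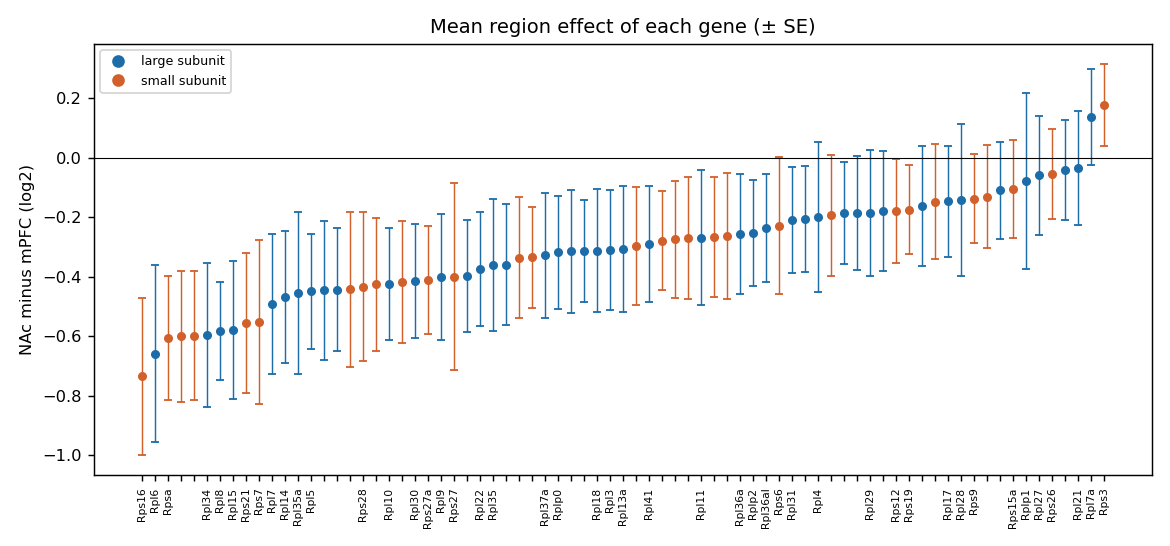
Mean region effect (NAc minus mPFC, log2, ± SE of the limma fit) of each of the 75 genes, ordered by value, with the subunit as colour and symbols for the genes named in the text. From Rps16 at -0.74 upward, 73 genes lie below 0, and Rpl7a at 0.14 and Rps3 at 0.18 lie above it.

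Rps16 had the lowest value, -0.74 ± 0.27 (SE, adjusted p = 0.19 with limma). Its levels in the 13 mPFC arrays ran from 5.56 through a median of 7.26 to 8.56, and in the 13 NAc arrays from 5.72 through 6.31 to 6.98. All 13 NAc arrays lay below the mPFC median, while the ranges overlapped. Rpl6 had a value of -0.66 ± 0.30 (SE), with levels from 3.68 through 4.58 to 6.44 in the mPFC and from 3.00 through 3.91 to 5.08 in the NAc. Rpsa had a value of -0.61 ± 0.21 (SE), with medians of 4.19 and 3.38, and 12 of the 13 NAc arrays lay below the mPFC median. The value of Rpsa depends on the probe: its 3 other passing probes gave -0.74, -0.16 and 1.43, and with the mean of its probes it stood at -0.020.

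Rpl8, which sits near the peptidyl transferase centre, had the smallest adjusted p of the family (0.0949 with limma, log2 value -0.58 ± 0.16, SE) and is named because of it, after its values were seen. It ran from 3.57 through 4.04 to 4.66 in the mPFC and from 3.16 through 3.33 to 4.04 in the NAc, and 12 of 13 NAc arrays lay below the mPFC median. With median centring in place of the 75th percentile its adjusted p was 0.0499, the only pass of the family in the 13 comparisons of the plot of changes under the alternatives run. Its other passing probe had a value of -0.37.

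The exceptions were also the genes that followed the family least. Rps3 had a region effect of 0.18 ± 0.14 and Rpl7a of 0.14 ± 0.16 (SE), and Rpl21 stood at -0.03 ± 0.19. Rps3 ran from 7.09 through 7.58 to 8.12 in the mPFC and from 7.28 through 7.88 to 8.19 in the NAc. The sign of these 3 depends on the probe: with the mean of a gene's probes Rps3 was at -0.0022, Rpl7a at -0.22 and Rpl21 at 0.43. Among the genes followed throughout, Rps27a had a value of -0.41, Rplp0 of -0.32, Rpl3 of -0.31, Rpl13a of -0.31 and Rps6 of -0.23.

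By pair of groups, the median NAc minus mPFC difference of the 75 genes was -0.06 in WT naive (48 below 0), -0.60 in WT R-SDS (72), -0.29 in TLR-DKO naive (65) and -0.23 in TLR-DKO R-SDS (70). Over all genes the medians were -0.02, -0.15, -0.07 and -0.03 in the same order. The shares of all genes below 0 were 51.7%, 58.4%, 54.1% and 53.1%. The difference between the pairs was not tested for the family. The mean region effect on day 1 alone was -0.51 with 73 below 0, and on day 2 alone -0.09 with 50 below 0, where the all-gene median was -0.08. Without the 2 mPFC arrays that had the highest medians (the third WT R-SDS and the first TLR-DKO naive array), it was -0.19. Without the third WT R-SDS array alone it was -0.21.

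Markers of perivascular macrophages and of neurons differed in the same direction. All 9 perivascular macrophage markers were below 0 in the NAc, with a median of -2.50, and 1 passed. Their summed level ran from 3.19 to 6.10 over the mPFC groups and from 1.37 to 3.49 over the NAc groups. All 7 measured neuronal markers were below 0 too, with a median of -0.71. Not every list did so. Markers of T, natural killer and B cells ran from 3.89 to 4.77 in summed level over the mPFC groups and from 3.90 to 4.75 over the NAc groups. In WT naive, oligodendrocyte markers ran from 3.95 to 4.04 in the mPFC and from 4.14 to 4.58 in the NAc, and they overlapped in the other groups. The remaining lists are not described here. The part of other cells in the region effect was not tested.

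Single members differed between the scan days in a comparison of day 2 with day 1 beside the 8 group means (chosen after seeing the data). Each slide was scanned on 1 day only, so scan day and slide cannot be told apart, and the cause was not tested. The threshold was passed by 18 of the 75 genes, or 24%, against 18% of all genes, so the share is not far from the background. Their directions were mixed: 8 were higher on day 2 (10.7%, against 7.89% of all genes) and 10 lower (13.3%, against 10.1%), and the median was -0.06 against -0.04 over all genes.

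Rps27 had the lowest value between the days. It ran from 6.21 through 6.87 to 7.51 on the 13 arrays of day 1 and from 4.40 through 5.52 to 6.41 on the 13 of day 2, a log2 difference of -1.20 ± 0.20 (SE, adjusted p = 4.62e-04 with limma). Rplp1 differed by -1.16 ± 0.18 and Rps7 by -0.99 ± 0.19, both lower on day 2. Among those higher on day 2 were Rpl6 (0.87 ± 0.25), Rpl4 (0.86 ± 0.19) and Rps6 (0.71 ± 0.18, all SE). The 5 most variable genes within groups, Rps27, Rpl6, Rplp1, Rps7 and Rpl35a, were all among the 18, and each group mixed both days.

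Measured probes of a gene did not always agree. For 50 of the 75 genes, 84 further probes passed the filter, with a median r of 0.84 to the brightest probe of the gene, and 26 of the 84 had an r under 0.5. In the stress effect in wild-type mPFC 78 of the 84 were above 0, with a median of 0.70. In the region effect 75 of the 84 were below 0, with a median of -0.32.

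Members were also read by the start motif, with no test of the difference. Genes with the motif had a median stress effect in wild-type mPFC of 0.73 (13 genes), and the 43 matched genes without it 0.66. Their median region effects were -0.40 and -0.29. Both values of a pair have the same sign, and with starts of uncertain placement no more is read from them.

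The wider translation machinery was followed through lists. Of 20 TOP mRNAs outside the family, all measured, 19 were above 0 in the stress effect in wild-type mPFC, with a median of 0.58, and 0 passed. Npm1, a nucleolar chaperone, stood at 0.91 ± 0.43, Rack1, a scaffold on the small subunit, at 0.87 ± 0.47, Tpt1 at 0.74 ± 0.42 and Eef1a1 at 0.54 ± 0.38 (SE). The highest was Vim at 1.43 and the lowest Nap1l1 at -0.19. In the interaction in mPFC 19 were below 0 (median -0.91) and in the region effect 18 (median -0.33). Their median r with the family's median level was 0.56, and 12 of the 20 were above 0.5.

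The mRNAs of factors that build or drive the ribosome were read in the same way. Of 34 ribosome biogenesis genes 22 were above 0 in the stress effect in wild-type mPFC (median 0.30), and of 28 measured initiation and elongation factors 19 (0.26). Of 24 measured mTORC1 components and TOP regulators 16 were above 0 (0.33), with Ddit4, an inhibitor of mTORC1, highest at 2.23. These shares lie near the 62.3% of all genes above 0, whose median was 0.17. In the region effect their medians were -0.01, -0.05 and 2.38e-04. Their median r with the family's level was -0.09, 0.08 and 0.07, against 0.12 over all genes, and 0 genes of these lists passed in either comparison.

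Mitochondrial ribosomal proteins, which serve a separate ribosome, were the next list. Of 76 measured, 40 were above 0 in the stress effect in wild-type mPFC, with a median of 0.06, and 38 were below 0 in the region effect, with a median of -0.01. Their median r with the cytosolic family was -0.04. These genes are dimmer: on WT mPFC naive replicate 1 their median level was 0.67, against 5.61 for the cytosolic family. Their summed level, which the bright genes lead, was 8.17 on WT mPFC naive replicate 3 and 9.40 on WT mPFC R-SDS replicate 3. The latter is the highest of the 26 arrays. The difference from the cytosolic family was not separated from the brightness of the probes.

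The paralog pairs within reach gave mixed values. In the stress effect in wild-type mPFC, Rpl36a stood at 0.89 and Rpl36al at 0.63, Rpl22 at 0.72 and Rpl22l1 at 0.76, Rps27 at 0.74 and Rps27l at 0.99, and Rpl10 at 0.77 and Rpl10l at 0.56. Rpl7 stood at 0.65 and Rpl7l1 at -2.50 ± 0.94 (SE, adjusted p = 0.83 with limma). In the region effect, Rpl36a was at -0.26 and Rpl36al at -0.24, Rps27 at -0.40 and Rps27l at -0.93, and Rpl10 at -0.43 and Rpl10l at -0.83. Rpl22 was at -0.38 and Rpl22l1 at 0.13, and Rpl7 at -0.49 and Rpl7l1 at 0.55. None of these differences between paralogs was tested.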

How the data were processed

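The deposited files of single arrays give a linear intensity for each spot. Per the file headers, its background was subtracted with Agilent Feature Extraction 11.0.1.1. The deposited matrix holds log2 values of the same arrays (r of 1 with the scanner values, differences of at most 0.0619, column medians from -2.90 to -2.21; its scale and centring were found by this comparison, since the labels do not state them). Here the level was the log2 processed signal after subtracting, on that scale, the 75th percentile of all probes of the array. Control spots and outlier flags were left out (108 of 55681 probes), 0 spots were saturated, and between 50.0% and 71.0% of spots were well above background. The headers name build mm9, and probes were named by accession through RefSeq (GRCm38.p6; 28026 named, 27655 not), which also supplied the promoters. A gene was tested if a probe of it exceeded background clearly on 3 or more arrays of any group, and was read from its brightest probe.

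All 26 arrays were fitted as 8 group means with limma 3.58.1 (R 4.3.3; lmFit and eBayes, two-sided), with Benjamini-Hochberg adjustment over 24738 genes and a threshold of 0.05. The scripts were tested on simulated data. The number of arrays limits the precision.

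The members, lists and rule for named genes were chosen with earlier results of these data known. Named were the 3 highest and 3 lowest members per comparison, Rpl3, Rpl13a, Rplp0, Rps6, Rps27a and Rpsa, the 5 at each end of correlation and SD, measured paralog pairs, the 5 most similar genes outside the family, the ends of described lists, and Tlr2, Tlr4 and Cx3cr1. Some genes that this rule would name are not reported here. Other list genes named were chosen after their values were seen. The alternatives were quantile normalization, median centring, normexp (offset 50; on the median signal, since the mean signal was not used here), the deposited matrix, other filters, the mean of probes, array weights, slide, scan day and replicate blocks, single days and leaving out arrays. Added after seeing the data were both normexp settings, the scan day difference and the fit without both wild-type mPFC arrays of slide 2.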

Additional observations from a re-analysis of the deposited data

Results flagged for a closer look

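The level of Rps3 in the TLR-DKO NAc R-SDS group stood out because 1 of its 4 arrays lay apart from the rest. The 4 levels were 7.48, 7.63, 7.63 and 7.64, and the gap of the lowest to its neighbour was 0.949 of the whole range, above the critical value of 0.829 for 4 samples. Chance gives such a gap in about 1 of 20 groups, and 44 groups were checked. The range is narrow, and Rps3 is the steadiest gene of the family.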

How the results depend on the processing

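Counts and medians were recomputed under each alternative. Of 375 medians, 362 moved by less than the SD of the family's median between arrays (0.38), and 7 of the other 13 were single scan days. That SD is larger than many of the medians themselves, so a median could change sign within it. The stress effects in TLR-DKO mPFC (up to 0.031) and TLR-DKO NAc (up to 0.0092) each kept their sign in 22 of 24 settings. The genotype effect kept it in 22 of 24 in naive mPFC and 22 of 23 in naive NAc. The mean stress and mean genotype effects each kept it in 41 of 42. Of 349 counts of genes past the threshold, 348 were 0 as in the report, and the exception was 1 gene, Rpl8, in the region effect with median centring. The number of arrays limits what can be detected.

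For the stress effect in wild-type mPFC the median of the 75 was 0.29 with quantile normalization, 0.28 with normexp and quantile, 0.083 on day 1 and without both wild-type arrays of slide 2, and 2.00 on day 2. For the interaction in mPFC it was -0.30, -0.32, -0.44 on day 1, -2.34 on day 2 and -0.25 without both arrays. The genotype effect in stressed mPFC was -0.086 on day 1 and -1.53 on day 2, and that in naive mPFC 0.84 on day 2. The scaling also moved all genes, whose median in the stress effect in wild-type mPFC went from 0.17 to 0.025 with quantile normalization. On single scan days and without both arrays of slide 2, fewer samples entered, and the cause of these shifts was not tested.

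Single genes near 0 changed sign. In the stress effect in wild-type mPFC, quantile normalization gave -0.14 for Rpl27, -0.18 for Rpl8, -0.37 for Rpl17 and -0.063 for Rplp0. Normexp with quantile gave -0.17 for Rpl8, -0.33 for Rpl17 and -0.088 for Rplp0. Rpl17 was at -0.066 with median centring and -0.073 with normexp and the 75th percentile. Array weights gave -0.055 for Rpl8, -0.40 for Rpl17 and -0.065 for Rpl13a. Without both wild-type arrays of slide 2, Rpl8 was at -0.19, Rpl17 at -0.37, Rpl13a at -0.54, Rplp0 at -0.19, Rps6 at -0.12 and Rps27a at -0.055. Without the other pair of outlying arrays (wild-type R-SDS replicate 3 and TLR-DKO naive replicate 1), Rpl17 was at -0.18, Rpl13a at -0.091 and Rps6 at -0.013.

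In the interaction in mPFC, quantile normalization gave 0.53 for Rpl27, 0.41 for Rps3 and 0.093 for Rplp0, and normexp with quantile 0.41 for Rps3 and 0.092 for Rplp0. Rps3 was at 0.0030 with normexp and the 75th percentile, and Rpl27 at 0.051 with median centring. The mean of the probes gave -0.60 for Rpl15 and 0.016 for Rpl14. Array weights gave -0.058 for Rpl15 and 0.091 for Rpl27, and slide as a block -0.35 for Rpl15. Without both arrays of slide 2, Rpl27 was at 0.018, Rps3 at 0.17 and Rpl13a at 0.28.

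In the region effect, Rpl21 was at 0.080 with quantile normalization, 0.056 with normexp and quantile, 0.43 with the mean of the probes, 0.0051 with array weights, 0.026 without the pair of outlying arrays and 0.0018 without both arrays of slide 2. The mean of the probes gave -0.0022 for Rps3 and -0.22 for Rpl7a.

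Leaving out single arrays gave medians from 0.38 to 0.89 in the stress effect in wild-type mPFC, from -1.05 to -0.48 in the interaction in mPFC, from -0.0086 to 0.50 in the genotype effect in naive mPFC and from -0.39 to -0.21 in the region effect. In the smaller comparisons it gave -0.33 to -0.027 (stress in TLR-DKO mPFC), 0.037 to 0.43 (stress in wild-type NAc), -0.22 to -0.0091 (stress in TLR-DKO NAc), -0.56 to -0.16 (interaction in NAc), -0.76 to -0.27 (genotype, stressed mPFC), -0.093 to 0.28 (genotype, naive NAc), -0.36 to -0.084 (genotype, stressed NAc), 0.080 to 0.22 (mean stress) and -0.17 to -0.0100 (mean genotype). In naive NAc the sign turned without wild-type naive replicate 3. In the stress effect in wild-type mPFC the ranges were -0.15 to 0.60 for Rpl27, -0.021 to 0.32 for Rpl8, -0.18 to 0.42 for Rpl17, -0.091 to 0.77 for Rpl13a, -0.099 to 0.56 for Rplp0 and -0.013 to 0.85 for Rps6. In the interaction they were -0.28 to 0.55 for Rpl15, -0.42 to 0.34 for Rpl27 and -0.35 to 0.046 for Rps3, and in the region effect -0.14 to 0.053 for Rpl21.

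Whether the replicate numbers pair the samples was not settled. Deviations of same-numbered mPFC arrays correlated from -0.08 to 0.26, with a median of 0.06 (4 of 18 pairs above 0.1). Those of same-numbered NAc arrays ran from -0.14 to 0.22, with a median of 0.06 (5 of 18). For arrays with different numbers the medians were -0.02 in the mPFC (3 of 45 above 0.1) and -0.06 in the NAc (9 of 45). The replicate number goes partly with the scan day, so these values cannot decide it. With the replicate number as a block the medians were 0.69 in the stress effect in wild-type mPFC, -0.97 in the interaction in mPFC and -0.31 in the region effect, 0 genes of the family passed in each, and Rpl15 turned to -0.26 in the interaction.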
